A study of Mus musculus with 9 samples.

Results

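Lipoprotein assembly genes were examined in liver tumours of mice transgenic for active Notch1. The set comprised 9 apolipoprotein genes (Apoa1, Apoa2, Apoa4, Apoa5, Apob, Apoc1, Apoc3, Apoe and Apom) and Mttp. They were chosen by name: every probe set whose only gene symbol in the platform annotation was one of these was taken, which gave 1 probe set for each of the 10 genes among 19938 genes measured. Total RNA of 9 mouse liver samples had been hybridised to Affymetrix Mouse Gene 1.0 ST arrays, 1 array per sample. The 4 control samples were healthy livers of monotransgenic mice with the Rosa26-lsl-NICD allele, a silent copy of the Notch1 intracellular domain that Cre can switch on. The 5 tumour samples were hepatocellular carcinomas (HCC) of bitransgenic AFP-Cre/Rosa26-lsl-NICD mice, in which Cre is driven by the promoter of alpha-fetoprotein. All mice shared the hybrid 129 x C57BL/6 background and the age range of 6 to 12 months. The controls lacked Cre, so the effects of Cre itself and of NICD cannot be told apart in this design, nor can those of the tumour state. The labels do not tie each array to a separate animal, so each p-value rests on the spread among arrays, part of which may be technical.

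Apolipoproteins are the protein coat of the particles that carry lipid in plasma, and the hepatocyte is their main source. Mttp loads lipid onto apolipoprotein B in the endoplasmic reticulum, which starts the assembly of very low density lipoprotein (VLDL). Apoa1 and Apoa2 are the main proteins of high density lipoprotein (HDL), and the small C proteins, Apoa5 and Apoe set how fast particles are lipolysed and cleared. Apoa1, Apoc3, Apoa4 and Apoa5 neighbour each other on chromosome 9, and Apoc1 and Apoe neighbour each other on chromosome 7, in the RefSeq gene table.

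None of the 10 genes passed limma's adjusted p threshold of 0.05 in either direction, against 0.16% of all genes tested that were lower and 0.858% that were higher. Apoa5 and Mttp were lower on every HCC array than on every control array, 2 of 10 genes beside 3.86% of all genes, and none was higher on every HCC array, beside 5.63%. At an unadjusted p below 0.05, 6 of 10 genes were lower and none higher, beside 9.85% and 10.5% of all genes. After repeated quantile normalisation or subtraction of array medians, 4 genes were lower at that p. The log2 change, HCC minus control, was negative for 9 of 10 genes, with a median of -0.42, while it was negative for 57.5% of all genes, with a median of -0.033. Scaled to 19 abundant plasma protein genes instead, 8 were negative, as Apoa1 also turned positive (median -0.27), and after repeated quantile normalisation all 10 were, Apoa2 included. The genes of the set differed in their spread. Apoa4, Apoa5, Apoc3, Apom and Mttp varied 2.46-fold to 8.84-fold among the 5 tumours, while Apoa1, Apoa2, Apob, Apoc1 and Apoe varied 1.10-fold to 1.62-fold.

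**Figure D1:**
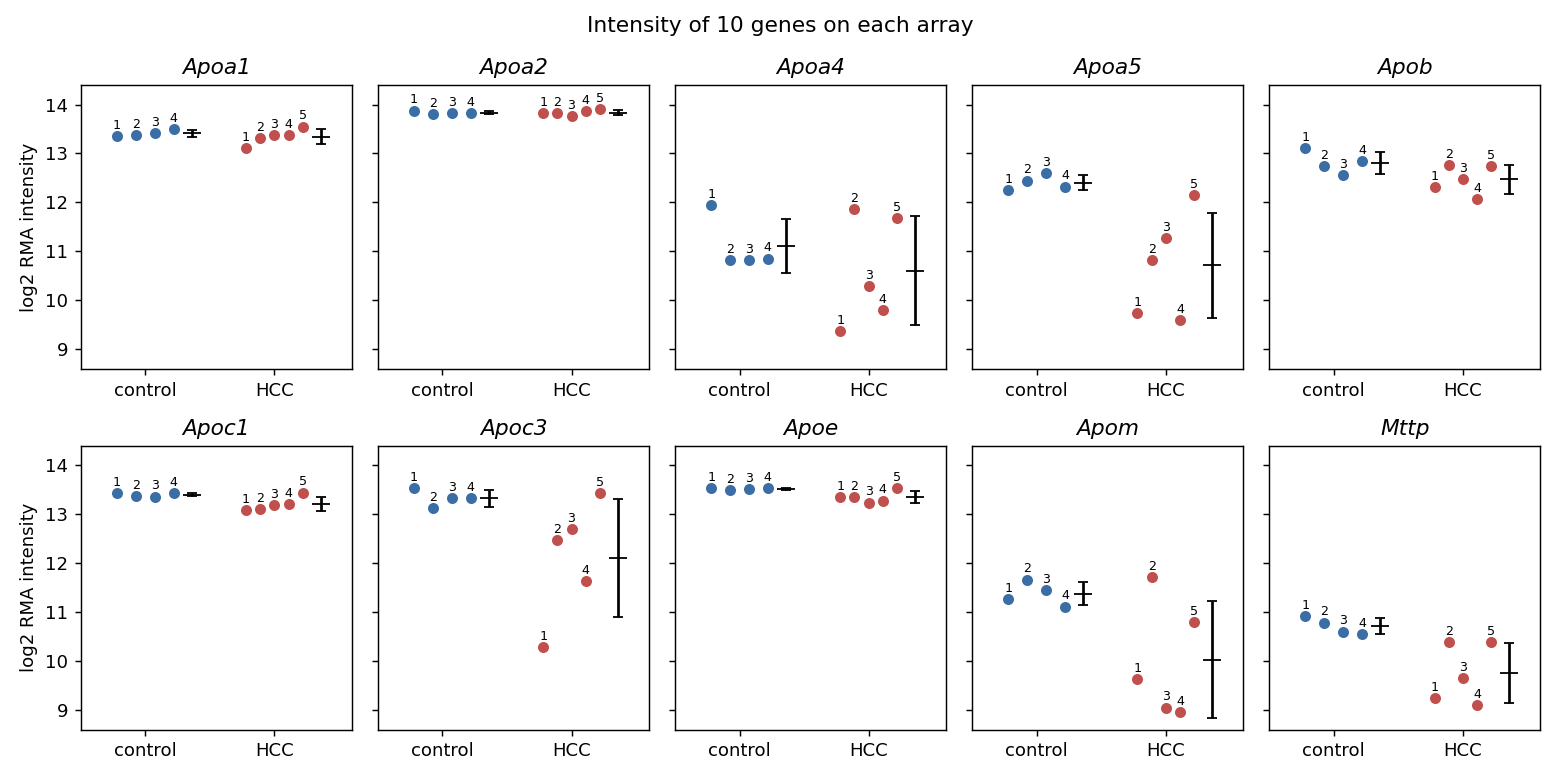
Each panel plots the log2 RMA intensity of 1 gene on 4 control and 5 HCC arrays; digits are array numbers, and the bar beside each group is the mean ± SD. Apoa5, Apoc3, Apom and Apoa4 fan out among the HCC arrays, from 8.95 for Apom on HCC array 4 up to 13.43 for Apoc3 on HCC array 5, while Apoa2 stays between 13.77 and 13.91 on all 9 arrays.

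Promoter windows of 3 of the lower genes and of Apoa1, a steady gene of the same cluster as Apoa5, are shown for what stands at their start sites. Each runs from 250 bases before to 50 after a RefSeq start (build GRCm38.p6) in the direction of transcription. Capitals mark any match, on either strand, to TATAAA (the TATA box), AGGTCA or GGGTCA (hexamers bound by nuclear receptors), CACGTG (the E-box), TGTTTAC or TGTTTGC (forkhead motifs) or TGGGAA (the core bound by Rbpj, the DNA-binding partner of NICD). The windows are Apoa5 at chr9:46268358-46268657 on the plus strand, Apom at chr17:35131752-35132051 on the minus strand, Mttp at chr3:138143369-138143668 on the minus strand and Apoa1 at chr9:46228380-46228679 on the plus strand.
Apoa5: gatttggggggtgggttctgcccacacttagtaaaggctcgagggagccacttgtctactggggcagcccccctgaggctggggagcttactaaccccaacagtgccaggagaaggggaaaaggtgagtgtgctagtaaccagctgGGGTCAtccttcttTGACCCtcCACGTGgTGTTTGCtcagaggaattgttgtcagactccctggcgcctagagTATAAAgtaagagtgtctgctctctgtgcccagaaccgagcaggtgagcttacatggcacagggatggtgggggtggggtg
Apom: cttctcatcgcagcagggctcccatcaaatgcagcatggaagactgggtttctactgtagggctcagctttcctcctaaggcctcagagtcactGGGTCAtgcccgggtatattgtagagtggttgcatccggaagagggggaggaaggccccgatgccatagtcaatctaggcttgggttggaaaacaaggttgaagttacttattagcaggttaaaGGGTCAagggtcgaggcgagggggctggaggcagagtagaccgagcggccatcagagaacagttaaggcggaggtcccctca
Mttp: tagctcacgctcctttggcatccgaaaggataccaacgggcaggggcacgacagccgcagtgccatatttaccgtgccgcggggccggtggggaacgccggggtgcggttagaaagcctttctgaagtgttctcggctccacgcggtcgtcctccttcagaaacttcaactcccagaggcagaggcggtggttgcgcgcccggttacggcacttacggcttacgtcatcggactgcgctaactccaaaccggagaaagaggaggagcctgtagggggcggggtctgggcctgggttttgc
Apoa1: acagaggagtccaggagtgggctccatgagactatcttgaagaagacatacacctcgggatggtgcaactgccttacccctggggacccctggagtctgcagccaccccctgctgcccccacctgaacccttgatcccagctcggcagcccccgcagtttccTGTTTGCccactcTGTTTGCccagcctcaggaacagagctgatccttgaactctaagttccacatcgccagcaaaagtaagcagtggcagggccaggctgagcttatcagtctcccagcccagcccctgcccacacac

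In the Apoa5 window, GGGTCA stood at -104 and, on the opposite strand, at -90, followed by the E-box at -82, a forkhead motif at -75 and the TATA box at -31. Counted from a second RefSeq start of Apoa5, whose window is not shown, the same sites stood at -129, -115, -107, -100 and -56. Apom had GGGTCA at -156 and -32, Apoa1 had 2 forkhead motifs at -88 and -75, and the Mttp window had no match. Windows were listed for 8 of the 10 genes. Over all 32851 windows, GGGTCA was present in 13.7%, AGGTCA in 16.3%, TATAAA in 13.6%, CACGTG in 7.15%, TGTTTAC in 3.65%, TGTTTGC in 5.07% and TGGGAA in 25.6%. Among the members TGGGAA was present for Apoa4 and Apoe. A match describes letters in these windows and no more.

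Apoa5, which promotes the lipolysis of triglyceride-rich particles, had the largest change of the set. It measured 12.25, 12.45, 12.60 and 12.32 on control arrays 1 to 4 and 9.74, 10.82, 11.27, 9.59 and 12.16 on HCC arrays 1 to 5. HCC arrays 1 and 4 were the lowest, 6.35-fold and 7.03-fold below the control mean, and HCC array 5 lay just under the lowest control. The group means were 12.40 ± 0.15 (SD, n = 4) and 10.71 ± 1.07 (SD, n = 5), a 3.22-fold lower level in HCC (log2 change -1.69, SE 0.48, 95% interval -2.77 to -0.60; limma adjusted p = 0.114). Without HCC array 5 the change was -2.05 and passed (limma adjusted p = 0.0207, where 2.79% of all genes were called lower).

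Mttp, the lipid transfer protein, measured 10.92, 10.79, 10.60 and 10.55 in control livers and 9.24, 10.38, 9.65, 9.10 and 10.39 in HCC, in array order. The groups did not overlap, with HCC arrays 1 and 4 again the lowest and HCC arrays 2 and 5 closest to the controls. The means of 10.71 ± 0.17 (SD, n = 4) and 9.75 ± 0.62 (SD, n = 5) gave a 1.95-fold lower level (log2 change -0.96, SE 0.28, limma adjusted p = 0.123), and without HCC array 5 the change was -1.12 (limma adjusted p = 0.0458). No other omission of 1 array brought any of the 10 genes past the threshold.

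Apob, the structural protein of VLDL that Mttp lipidates, measured 13.10, 12.74, 12.56 and 12.84 in control livers and 12.31, 12.76, 12.48, 12.06 and 12.74 in HCC. The groups overlapped, with HCC arrays 2 and 5 inside the control range and the other 3 below it. The log2 change was -0.34 (95% interval -0.71 to 0.032, limma adjusted p = 0.280). Mttp alone was lower on every HCC array than on every control, so its difference from Apob is not a separate result. Within each array, the log2 difference of Apob minus Mttp was 1.95 to 2.29 in control livers and 2.35 to 3.07 in HCC. It was larger on 5 of 5 HCC arrays than on any control, and the share of other gene pairs that do so was not counted. The group means of Apob minus Mttp differed by 0.62, with an exact permutation p of 0.0317 over 126 splits of the arrays (two-sided, 0.143 adjusted over 6 pairs compared). The smallest p this design allows is 0.00794.

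Apoc3, which restrains lipolysis and hepatic uptake, spread most among the tumours. Control arrays gave 13.54, 13.12, 13.32 and 13.33, and HCC arrays gave 10.29, 12.47, 12.69, 11.64 and 13.43. HCC array 1 was 8.21-fold below the control mean, and HCC array 5 lay within the control range. The means were 13.33 ± 0.17 (SD, n = 4) and 12.10 ± 1.20 (SD, n = 5), and the log2 change was -1.22 (95% interval -2.43 to -0.017, limma adjusted p = 0.242). Without HCC array 1 it was -0.77.

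Apom, a lipocalin of HDL that carries sphingosine-1-phosphate, measured 11.27, 11.66, 11.45 and 11.12 in control livers and 9.64, 11.72, 9.05, 8.95 and 10.80 in HCC. HCC array 2 stood above every control and the other 4 HCC arrays below every control. Its lowest arrays were HCC arrays 3 and 4, at 5.01-fold and 5.36-fold under the control mean, so the order of the tumours differed from that of Apoc3. The log2 change was -1.34 (SE 0.54, 95% interval -2.56 to -0.13, limma adjusted p = 0.211).

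Apoa4, a lipid-binding protein of intestine and mouse liver, was the gene with the widest control range. It measured 11.94 on control array 1 and 10.82, 10.82 and 10.85 on the others, against 9.38, 11.86, 10.30, 9.81 and 11.68 in HCC. HCC arrays 2 and 5 lay above 3 of 4 controls, and HCC arrays 1, 3 and 4 below all of them. The log2 change was -0.50 with a 95% interval from -1.72 to 0.71 (limma adjusted p = 0.624), and it was -0.23 without control array 1, -0.20 without HCC array 1, -0.30 without HCC array 4, -0.77 without HCC array 5 and -0.82 without HCC array 2.

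**Figure D2:**
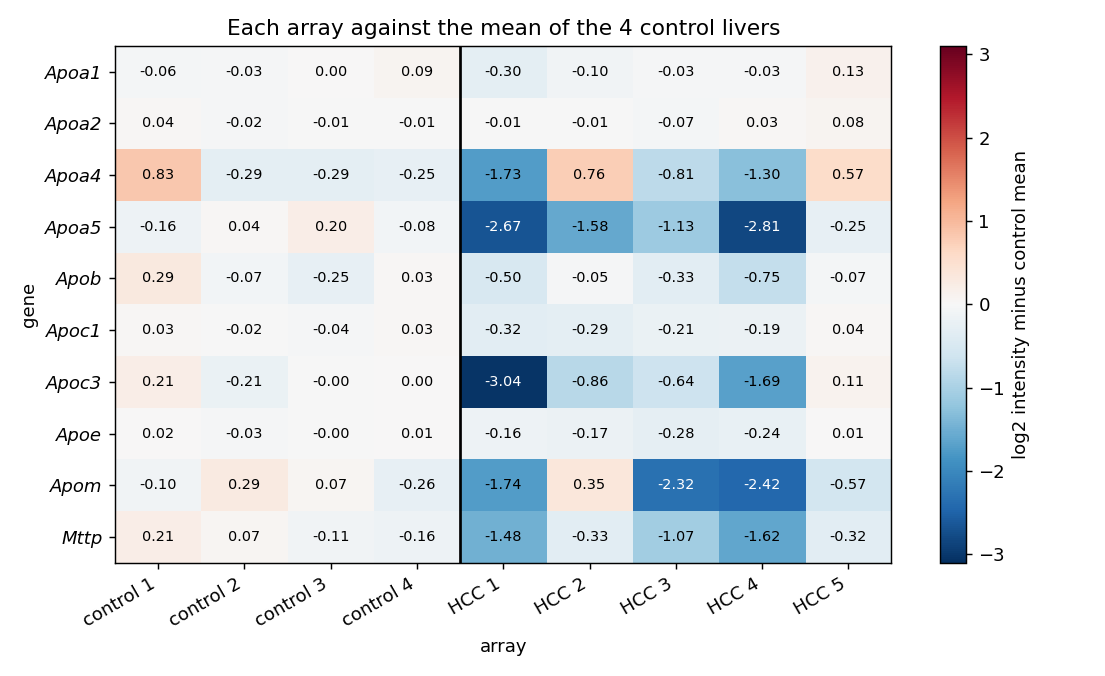
Colour and number give the log2 intensity of each gene (rows) on each array (columns) minus its mean over the 4 control livers. The darkest cells are Apoc3 on HCC array 1 (-3.04) and Apoa5 on HCC array 4 (-2.81), while Apom on HCC array 2 (0.35) and Apoa4 on HCC arrays 2 and 5 (0.76 and 0.57) are above the control mean.

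The tumours differed as arrays. HCC array 1 had 9 of 10 genes below the lowest control, HCC array 3 had 9, HCC array 4 had 8, HCC array 2 had 6 and HCC array 5 had 3, beside 31.3%, 27.5%, 31.9%, 35% and 25.2% of all genes on those arrays. Above the highest control were 3 of 10 genes on HCC array 5, beside 19.4% of all genes, 1 on HCC array 2, beside 25.6%, and none on the other HCC arrays, beside 24.9% to 28.4%. The median deviation of the 10 genes from the control mean was -0.99, -0.14, -0.49, -1.02 and 0.029 on HCC arrays 1 to 5, while that of all genes stayed between -0.048 and -0.023. Xist, a transcript of the inactive X chromosome, was high on control arrays 1 to 3 and HCC arrays 1 and 2 (10.68 to 11.76) and low on the others (4.83 to 5.10), so HCC arrays 1 and 4, with the lowest medians, were 1 of each kind. The 2 kinds were unevenly split between the groups, so Xist level and group are partly confounded. With the Xist level as a covariate none of the 10 genes passed, as without it. At an unadjusted limma p below 0.05, 4 genes were lower with the covariate and 6 without. Apom went from -1.34 to -1.09 and Apoc3 from -1.22 to -1.47. All 10 genes had a larger SD over HCC than over control arrays, as did 67.9% of all genes. The SD ratio had a median of 3.84 over the 10 genes and 1.45 over all. It ran from 1.31 for Apob to 6.99 for Apoc3. The hepatocyte markers given below had ratios from 1.33 for Trf to 61.9 for Asgr1, with Cps1 at 4.86 and Tat at 6.04. The wider spread was thus not particular to the 10 genes.

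The other 4 genes gave nearly the same high signal everywhere. Apoa2, the second protein of HDL, measured 13.81 to 13.87 in control livers and 13.77 to 13.91 in HCC (log2 change 0.0048, 95% interval -0.13 to 0.14, limma adjusted p = 0.972). Apoa1, the main protein of HDL, measured 13.35 to 13.51 and 13.11 to 13.55, with HCC array 1 the lowest (log2 change -0.067, 95% interval -0.27 to 0.14, limma adjusted p = 0.708). Without HCC array 1 its change was -0.0076, without control array 4 -0.036 and without HCC array 5 -0.12. Apoe, the ligand of remnant receptors, measured 13.54, 13.49, 13.52 and 13.53 in control livers and 13.36, 13.35, 13.24, 13.28 and 13.53 in HCC. Thus 4 of 5 HCC arrays lay below every control and HCC array 5 within their range (log2 change -0.17, 1.12-fold lower, limma adjusted p = 0.236). Apoc1, its neighbour, measured 13.36 to 13.43 and 13.08 to 13.44, with the same 4 arrays below every control (log2 change -0.19, 1.14-fold lower, limma adjusted p = 0.236). Scaled to plasma protein genes, 16 of 19 of which had a negative change themselves, the log2 change was -0.013 for Apoe (limma adjusted p = 0.970) and -0.038 for Apoc1 (limma adjusted p = 0.910).

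These 4 genes and Apoc3 stood near the top of the measured range in control liver, with a mean within 1 log2 unit of the mean array maximum of 14.32. That limit was set after the values were seen. Apoa2 ranked between 6 and 10 of 35512 probe sets on every array, at most 0.56 log2 units below the array maximum. Apoe ranked 20 to 69, Apoa1 19 to 119 and Apoc1 32 to 146. Intensities near the maximum can be compressed on arrays, and no saturation flag was used here, so small log2 differences of these genes may understate a change in RNA; this was not tested. In this range 19 genes were found, with a median log2 change of -0.16 and a median SD over HCC arrays of 0.13. Apoc3 had the most negative change of the 19 and the only one of at least 2-fold, its rank going from 34 to 141 in control livers down to 2867 on HCC array 1. Among the 1439 genes 1 to 4 log2 units below the maximum, which hold Apoa4, Apoa5, Apob, Apom and Mttp, the median was -0.15, the median SD over HCC arrays 0.26, and 140 genes were at least 2-fold lower. Intensity depends on probes as well as on RNA, so these ranks do not order the genes by transcript level.

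**Figure D3:**
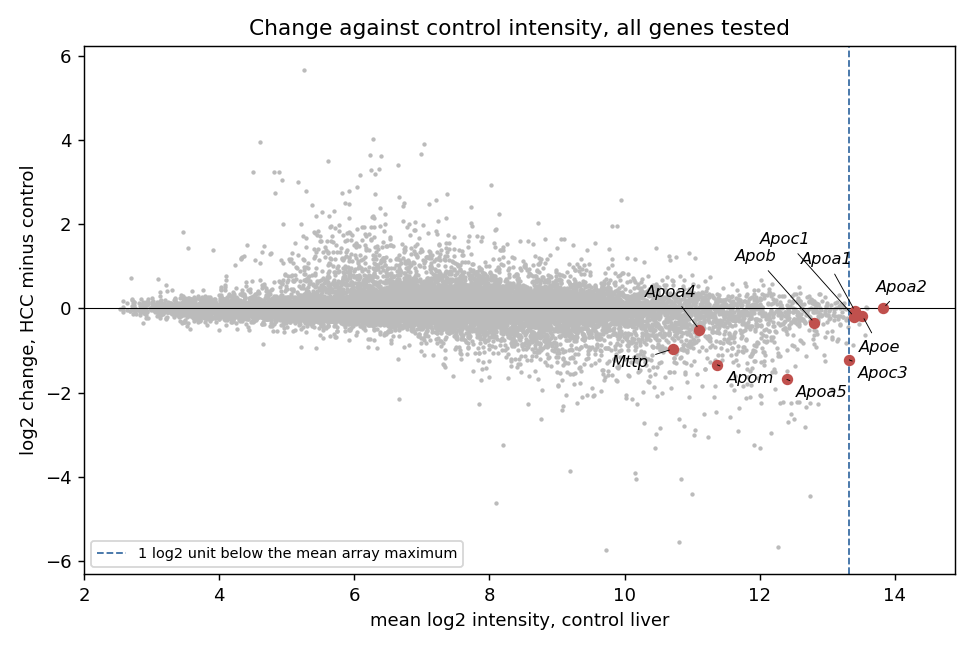
Points are the 19938 genes, with the mean log2 intensity in control liver on the x axis and the log2 change, HCC minus control, on the y axis; the 10 genes are red. Right of the dashed line, 1 log2 unit below the mean array maximum, Apoa1, Apoa2, Apoc1 and Apoe lie close to 0 and Apoc3 at -1.22.

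Within the chromosome 9 cluster, neighbours were set against each other on the same array. Apoa4 minus Apoa5 differed between the groups by 1.19 on the log2 scale (exact permutation p = 0.0556, adjusted 0.143), and Apoa1 minus Apoc3 by 1.16 (p = 0.0714, adjusted 0.143, permutation). On 4 of 5 HCC arrays, but not on HCC array 5, Apoa1 minus Apoc3 exceeded every control. On the same 4 arrays Apoc3 alone lay below every control. Apoa4 minus Apoc3 differed by 0.72 (exact permutation p = 0.167, adjusted 0.250) and Apoa4 minus Apoa1 by -0.44 (exact permutation p = 0.476, adjusted 0.571). The last was -0.14 without control array 1, -0.19 without HCC array 1, -0.23 without HCC array 4 and -0.76 without HCC array 2, and Apoa1 minus Apoc3 was 0.76 without HCC array 1. On chromosome 7, Apoe minus Apoc1 was 0.12 ± 0.023 (SD, n = 4) in control livers and 0.15 ± 0.11 (SD, n = 5) in HCC, a difference of 0.025 (exact permutation p = 0.611, adjusted 0.611). No pair passed after adjustment over the 6.

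**Figure D4:**
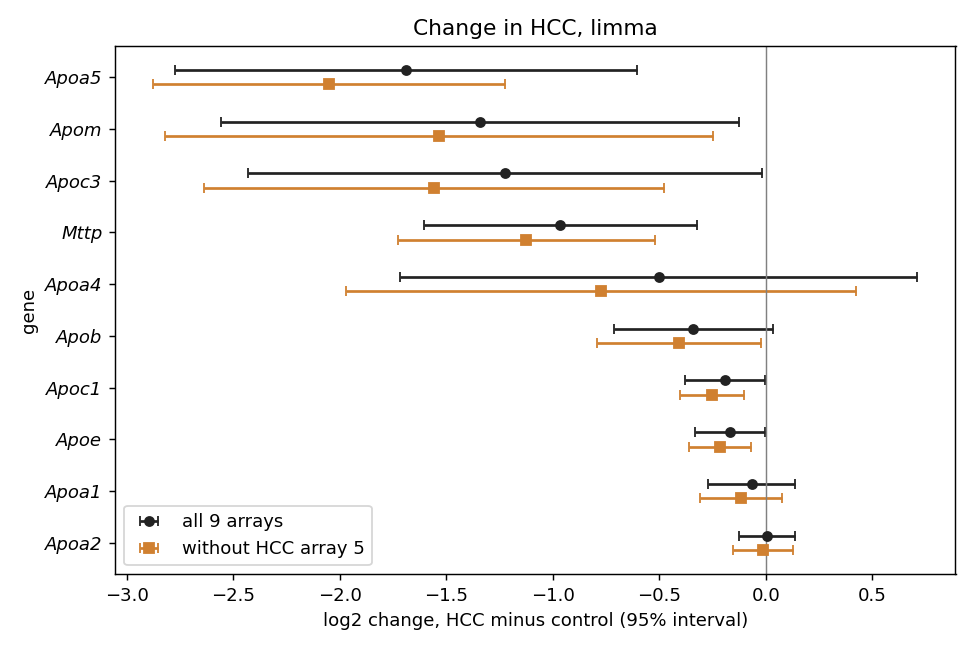
Points are the log2 change of each gene, HCC minus control, with its 95% interval from limma, over all 9 arrays (black circles) and without HCC array 5 (orange squares). The intervals of Apoa5, Apom, Apoc3, Mttp, Apoc1 and Apoe lie below 0 in both fits before adjustment over all genes, those of Apoa1, Apoa2 and Apoa4 span 0 in both, and that of Apob lies below 0 only without HCC array 5.

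Genes whose profile was most like that of the variable members were found by the root mean square difference over the 9 arrays after centring each gene on its own mean. Nearest to Apoa5 were Alas1, the first enzyme of heme synthesis (difference 0.19 log2 units), Ugt2a3 (0.24) and Acad11 (0.27). Nearest to Apoc3 were Tdo2, the tryptophan dioxygenase (0.21), Acot12 (0.21) and Baat, which conjugates bile acids (0.24). Mttp was nearest to Hgfac (0.12), Gsto1 (0.13) and Gstt3 (0.13), and Apom to Pde9a (0.29), Ces2e (0.36) and Aqp8 (0.36). Apoa4 was nearest to Colec12 (0.33), the lipid droplet protein Plin2 (0.36) and G0s2, an inhibitor of lipolysis (0.37). These genes were picked from all 19938, and the nearest member only from the set, so their distances cannot be set against each other. The nearest member to Apoa5 was Apoc3 (0.46, 69th of all genes), and the nearest to Apom was Mttp (0.54, 55th). For Apoa4 it was Mttp (0.49, 50th), for Apoc3 it was Apoa5 (0.46, 118th) and for Mttp it was Apob (0.39, 604th).

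The other genes of the pathway, by lists of named genes, showed few calls (limma adjusted p below 0.05). The counts of negative changes in each list stand beside 57.5% of all genes. Of 16 other apolipoproteins and lipid carriers, 13 had a negative change (median -0.29). Apol7a, an apolipoprotein L gene of a family with similar copies, fell from 9.63 ± 0.15 (SD, n = 4) to 8.40 ± 0.49 (SD, n = 5) (log2 change -1.23, limma adjusted p = 0.0489). Of 23 genes of particle assembly and export, 19 had a negative change (median -0.30). Lman1, a cargo receptor that carries glycoproteins out of the endoplasmic reticulum, fell from 12.02 ± 0.10 (SD, n = 4) to 11.44 ± 0.20 (SD, n = 5) (limma adjusted p = 0.0493). No gene of either list was higher past the adjusted threshold. The calls of Apol7a and Lman1 were lost on leaving out 8 of 9 arrays in turn and kept only without HCC array 5. Of 20 receptors, lipases and sterol transporters, 14 had a negative change (median -0.24). Lpl was higher past the adjusted threshold and none was lower past it. On every HCC array, 5 of the 20 were below every control, beside 3.86% of all genes. Lpl, the lipase that Apoa5 aids and Apoc3 restrains, measured 6.10, 7.05, 6.69 and 6.75 in control livers and 9.37, 10.53, 10.92, 10.26 and 9.26 in HCC. The groups lay far apart, with a log2 change of 3.42 (10.7-fold higher, limma adjusted p = 0.00748). Without 1 of the 9 arrays, control array 3, Lpl was at an adjusted p of 0.0504 in limma.

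Of 28 transcription factors and coregulators of apolipoprotein genes, 22 had a negative change (median -0.29), beside 57.5% of all genes, and none passed the adjusted threshold in limma. At an unadjusted limma p below 0.05, 7 were lower and 2 higher of 16 other apolipoproteins and lipid carriers. These counts were 8 and 1 of 23 assembly genes and 6 and 1 of 20 receptors, lipases and transporters. Of the 28 regulators, 9 were lower and 1 higher at that p, beside 9.85% and 10.5% of all genes. Those with the smallest p were Ppara, the fatty acid receptor (10.30 ± 0.28 and 9.13 ± 0.76, adjusted p = 0.130 in limma), Nr1i3, the xenobiotic receptor (11.04 ± 0.48 and 8.15 ± 1.95, adjusted p = 0.130 in limma), and Creb3l3 (9.27 ± 0.13 and 8.54 ± 0.55, adjusted p = 0.168 in limma), each with n = 4 and n = 5. Creb3l3, a liver factor that acts on Apoa4 and Apoa5, was lowest on HCC array 1 (7.80) and 9.15 on HCC array 5. Hnf4a, the nuclear receptor that drives many apolipoprotein genes, measured 10.11 ± 0.09 and 9.90 ± 0.44 (adjusted p = 0.581 in limma); it was picked for its role after its values were seen.

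**Figure D5:**
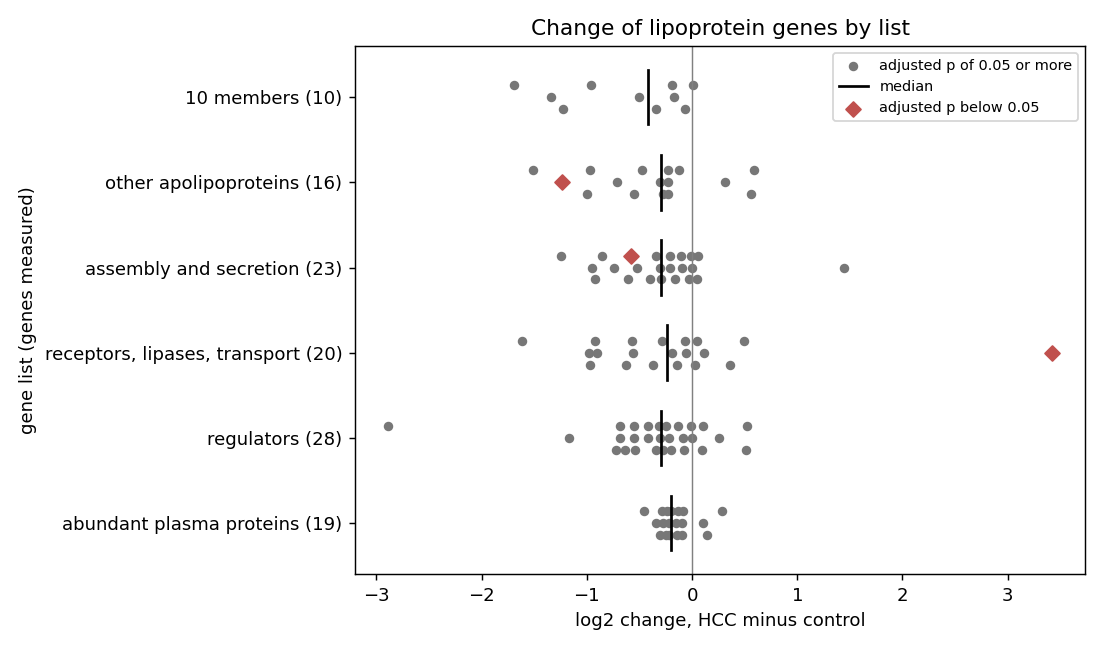
Each point is the log2 change, HCC minus control, of 1 gene, by list, with the list median as a black line and red diamonds for genes past an adjusted p of 0.05 in limma. The 10 members reach from -1.69 to 0.0048 and the 19 abundant plasma proteins only from -0.45 to 0.28, and Lpl stands alone at 3.42.

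In RNA of whole tissue, fewer cells of a type and less RNA per cell cannot be told apart. All 10 hepatocyte markers were measured and had a negative change (median -0.23, none past the threshold), beside 57.5% of all genes. Among these markers, Alb was at 13.55 ± 0.08 (SD, n = 4) in control livers and 13.30 ± 0.23 (SD, n = 5) in HCC. The summed linear intensity of these markers was 83480 to 90829 units in control livers and 62215 to 82109 in HCC, lowest on HCC arrays 1 and 4. The smallest p among them were those of Cps1, Tat and Asgr1, with log2 changes of -0.83, -0.88 and -0.94. The 19 abundant plasma proteins, which share Alb, Ttr, Trf, Ahsg, Fgb and Serpinc1 with the hepatocyte markers, had a median change of -0.19. None of the 19 passed, with the smallest p for Kng1 (-0.29), Fga (-0.45) and Ambp (-0.24). Of the 19, 16 had a negative change, and Alb, Ttr, Trf, Ahsg and Ambp had control means within 1 log2 unit of the mean array maximum. Scaled to the mean of the 19, which raised the median of all genes by 0.16, Apoa5 was at -1.53 (limma adjusted p = 0.0585) and Mttp at -0.81 (limma adjusted p = 0.0625). On that scale Apom was at -1.19, Apoc3 at -1.07, Apoa4 at -0.35 and Apob at -0.18.

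Markers of other cells were measured as well, and their counts of negative changes stand beside 57.5% of all genes. The 7 bile duct markers summed to 865 to 970 units in control livers and 1243 to 4360 in HCC. The sum was highest on HCC array 1, where Apoc3 was lowest, and most of it there was Cftr (log2 10.85) and Sox9 (log2 10.16). Among the tumours, Cftr, Krt19, Pkhd1 and Onecut1 were highest on that array. Krt7 and Epcam were highest on HCC array 2 and Sox9 on HCC array 4. Of the 7 markers, 6 had a positive change. Sox9, a duct cell factor, rose by 2.15 on the log2 scale (limma adjusted p = 0.0228), a call lost on leaving out any 1 of the 4 controls (0.0629 to 0.103). The 12 macrophage markers, of cells that also make Apoe, summed to 3737 to 8472 units in control livers and 3569 to 15308 in HCC, highest on HCC array 2, where Apoe was 13.35; 8 of 12 had a negative change. Cd163, a scavenger receptor, fell from 7.34 ± 0.24 (SD, n = 4) to 5.95 ± 0.38 (SD, n = 5) (limma adjusted p = 0.0250), a call lost without control array 1, 2 or 3 or HCC array 4 (0.0628 to 0.105). The sums of 8 endothelial markers were 2841 to 3376 and 1640 to 3334 units, with 5 of 8 negative. Those of 10 stellate cell markers were 1689 to 1907 and 1493 to 1697, with 5 of 10 negative, and those of 8 lymphocyte markers 828 to 1047 and 703 to 1729, with 5 of 8 negative. The 8 intestinal markers, of a tissue that also expresses Apoa4, Apob and Mttp, summed to 10020 to 10793 and 4735 to 11032 units, most of it Fabp2 and Anpep, which liver also gave at 12.99 ± 0.08 and 10.81 ± 0.12 (SD, n = 4); 7 of 8 were negative. No gene of these last 4 lists passed the threshold; the smallest p were those of Kdr (-0.64), Tek (-0.65) and Clec4g (-1.58) among endothelial, Acta2 (1.09), Col1a2 (0.21) and Lrat (-1.19) among stellate, Cd4 (-0.17), Cd8a (-0.14) and Cd3d (-0.27) among lymphocyte and Vil1 (1.52), Fabp2 (-0.55) and Alpi (-0.10) among intestinal markers, with log2 changes in parentheses. RMA gives every probe set a positive intensity, so no marker was listed at 0. The part of these cells in the values of the 10 genes was not tested.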

How the data were processed

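The authors deposited 1 linear intensity per probe set and array, made with RMA (robust multi-array average), per the submitters' processing notes. GenePattern and R were used, per the series' design text, both with versions not given in the sources used here. Deposited values were transformed to log2 with no floor or pseudocount. Array medians were 91.5 to 101 units. The number of arrays limits the precision.

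Of 35512 probe sets, 21789 had 1 gene symbol in the platform annotation, 1621 several and 12102 none. Those with 1 symbol entered, with the probe set of highest mean kept per gene, which left 19938 genes; symbols were matched by Entrez identifier to RefSeq (GRCm38.p6) for 21698 probe sets. Groups were compared with limma 3.58.1 in R 4.3.3 (lmFit, eBayes, two-sided, Benjamini-Hochberg over all genes, adjusted p below 0.05). Within-array differences of 6 gene pairs were compared by exact permutation. Tables and plots used Python 3.11.15, pandas 2.3.3, numpy 2.4.6 and matplotlib 3.10.9. On simulated data for HCC against control, with 19938 genes, the fit recovered 82% of 100 genes changed by a log2 of 1 and 90% of 100 changed by 2, with 13 false calls. The simulated noise was independent between genes, and the changed genes were drawn at random from all. Recovery was not measured for genes as variable among tumours as Mttp (SD 0.62) or Apoc3 (SD 1.20), so these shares do not apply to them.

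Alternatives were a filter on dim genes, other scalings, array weights, a trended robust eBayes, the mean of all probe sets per gene, Xist as a covariate, the array number as a block and the omission of each array. The 10 genes and the lists were chosen with earlier results of these data known. Named were the 10 genes, list genes past the threshold or else up to 3 with the smallest p, and the 3 most similar genes of each member whose SD over 9 arrays exceeded 0.5. Same-numbered arrays did not deviate together in every pair (correlations -0.083 to 0.32).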

Additional observations from a re-analysis of the deposited data

Results flagged for a closer look

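The control value of Apoa4 on array 1, at 11.94, lay far from the other 3 controls (10.82 to 10.85), a gap of 0.967 of the group's range. It was the only such value among 20 gene groups examined, and chance gives about 1 in 20. Without control array 1 the log2 change of Apoa4 was -0.23 instead of -0.50.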

How the results depend on the processing

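No member was higher past the threshold under any of 18 alternatives, and 1 or 2 were lower under 2 of them. These were the omission of HCC array 5 (Apoa5 and Mttp) and the replicate block, a fit with the array number as a block, which takes HCC array 5 out of the comparison (1 member, Apoa5 at -2.05, limma adjusted p = 0.0368). The numbers pair the arrays only by name: the deviations of same-numbered arrays correlated at -0.0040, 0.32, -0.029 and -0.083, and only arrays numbered 2 matched their own number best. Over the omissions of 1 array, members lower ranged from 0 to 2, Apoa5 from -2.05 to -1.41, Mttp from -1.12 to -0.80 and Apoa2 from -0.013 to 0.022. Directions turned for Apoa2 after repeated quantile normalisation (-0.047) and with the replicate block (-0.013), and for Apoa1 scaled to plasma protein genes (0.089), a setting added after seeing the data. The difference between Apoe and Apoc1 ranged from -0.0079 to 0.050 over the omissions. The causes were not tested. The counts of all genes higher and lower, 171 and 32, ranged over the omissions from 10 to 631 and from 0 to 556, with the highest counts without HCC array 5 and 0 lower without control array 1, 2 or 3. They were 285 and 93 among genes above the median mean, 503 and 246 with array weights, 259 and 220 with the replicate block, and 490 and 104 on the plasma protein scale. After subtracting array medians they were 108 and 11, and 50 genes were lower after quantile normalisation.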

Other observations

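Of the 16 other apolipoproteins and lipid carriers, 8 were lower on every HCC array than on every control, beside 3.86% of all genes. Among the 8 were Pon1 and Pon3, paraoxonases that HDL carries, and Apon. Pon1 measured 12.18 to 12.32 in control livers and 9.72, 10.51, 12.03, 9.41 and 11.92 on HCC arrays 1 to 5 (log2 change -1.51, limma adjusted p = 0.171). It was lowest on HCC arrays 1 and 4, as Apoa5 was. Pon3 measured 10.70 ± 0.05 (SD, n = 4) and 9.99 ± 0.33 (SD, n = 5), with a limma adjusted p of 0.0655. Apon, an apolipoprotein expressed in mouse liver, was 12.46 to 12.69 in control livers and 9.43 on HCC array 1, against 11.82 to 12.42 on the other HCC arrays.

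Clu (clusterin, also called apolipoprotein J) and Sort1, a sorting receptor that binds apolipoprotein B, were higher on every HCC array than on every control, as were 5.63% of all genes. Clu measured 12.04 ± 0.14 (SD, n = 4) and 12.61 ± 0.37 (SD, n = 5), with a limma adjusted p of 0.142. Sort1 measured 6.61, 6.65, 6.78 and 7.34 in control livers and 9.40, 7.83, 8.08, 8.64 and 7.47 in HCC (log2 change 1.44, limma adjusted p = 0.0904). It was highest on HCC arrays 1 and 4, the arrays with the lowest Mttp. These 5 genes were chosen after their values were seen, and none passed the adjusted threshold.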
